A study of Mus musculus with 2 samples.

Results

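The translation initiation and elongation factors described here were the 65 mouse genes whose symbols begin with Eif or Eef and a digit, that GENCODE M21 annotates as protein-coding and that lie on autosomes. They were 65 of 55536 annotated genes, and comprised 52 initiation factor (Eif) and 13 elongation factor (Eef) genes, out of 79 symbols that matched the pattern. The other 14 matching symbols were 11 genes of another type and 3 on the sex chromosomes. Total RNA of the gastrocnemius, a calf muscle, was sequenced in 2 libraries from male B6CASTF1/J mice, first-generation crosses between C57BL/6J and CAST/EiJ supplied by The Jackson Laboratory. The labels describe an age of 18 to 20 months, although their age field reads unknown. They name no treatment, genotype change or second group, so no condition could be compared, and the 2 libraries, biological replicates 1 and 2, formed 1 group. The males are numbered 3 and 4 in the labels, yet a single donor record is cited for both. The p-values below compare these 2 libraries and hold counting error only. They do not measure the spread between animals or preparations, and differences between the libraries may be technical.

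The RNA input was 300 ng a library, and synthetic ERCC RNAs were added in known amounts as spike-ins. The alignment-based gene table held 40795740 expected counts (reads per gene, with reads that fit several genes shared out) in replicate 1 and 44919441 in replicate 2. Levels are given in TPM, a unit that divides counts by transcript length and scales each library to the same total, so that genes can be compared with each other. A read-based transcript table of the same reads, summed per gene, gave a second estimate of each level and is no replicate. Markers of the labelled tissue were abundant, and 12 fast fibre genes, among them Myh4 and Mylpf, summed to 110458 TPM in replicate 1 and 83656 TPM in replicate 2. Myh1 of that list went the other way, with 511 TPM in replicate 1 and 1171 TPM in replicate 2. The libraries differed in slow fibre content as read from markers. The 12 slow fibre genes, among them Myh7 and Tnnt1, summed to 250.1 TPM in replicate 1 and 2713 TPM in replicate 2, with all 12 called higher in replicate 2 by the test used below, against 4.48% of all genes tested. In bulk RNA, fewer cells of a type and less RNA per cell cannot be told apart.

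Translation of most mRNAs starts when the cap-binding protein eIF4E, the scaffold eIF4G and the helicase eIF4A load a small ribosomal subunit that carries eIF1, eIF1A, eIF3, eIF5 and the eIF2 complex with initiator tRNA. Elongation then needs eEF1A, which delivers each aminoacyl-tRNA, the eEF1B complex, which recharges eEF1A with GTP, and eEF2, which moves the ribosome along. Adult skeletal muscle, heart and neurons are known to use a second eEF1A gene, Eef1a2, in place of the ubiquitous Eef1a1, and muscle shares its control points with other tissues: phosphorylation of eIF2, of the eIF4E-binding proteins and of eEF2.

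Of the 65 genes, 62 were detected, meaning at least 1 TPM in both libraries. That was 95.4% of them, against 45.7% of the 22015 nuclear protein-coding genes. The 3 exceptions were Eif4e1b, Eef1akmt3 and Eif5a2. Eif4e1b, a cap-binding protein known from oocytes, had 0 counts in both libraries of the alignment-based table, which allows up to 3 counts of each library's total, but 6.87 and 4 estimated counts in the read-based table. Eef1akmt3, a lysine methyltransferase of eEF1A, had 1 count in replicate 1 and 4 counts in replicate 2. That limit covers counting error only.

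In the alignment-based table, mean levels of the detected translation factors ran from 1.31 TPM (Eif2ak2) to 886 TPM (Eef1a2), and the total was concentrated in a few genes. The 65 genes summed to 4897 TPM in replicate 1 and 5098 TPM in replicate 2, or 1.07% and 1.16% of the TPM of nuclear coding genes. Eef1a2, Eif1, Eef2 and Eif4g2 alone held 46.9% of that sum in replicate 1 and 47.3% in replicate 2, and the 10 highest genes held 68.0% and 68.5%. The median gene had 23.6 TPM in replicate 1 and 25.2 TPM in replicate 2. In both libraries 21 genes reached 50 TPM.

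**Figure D1:**
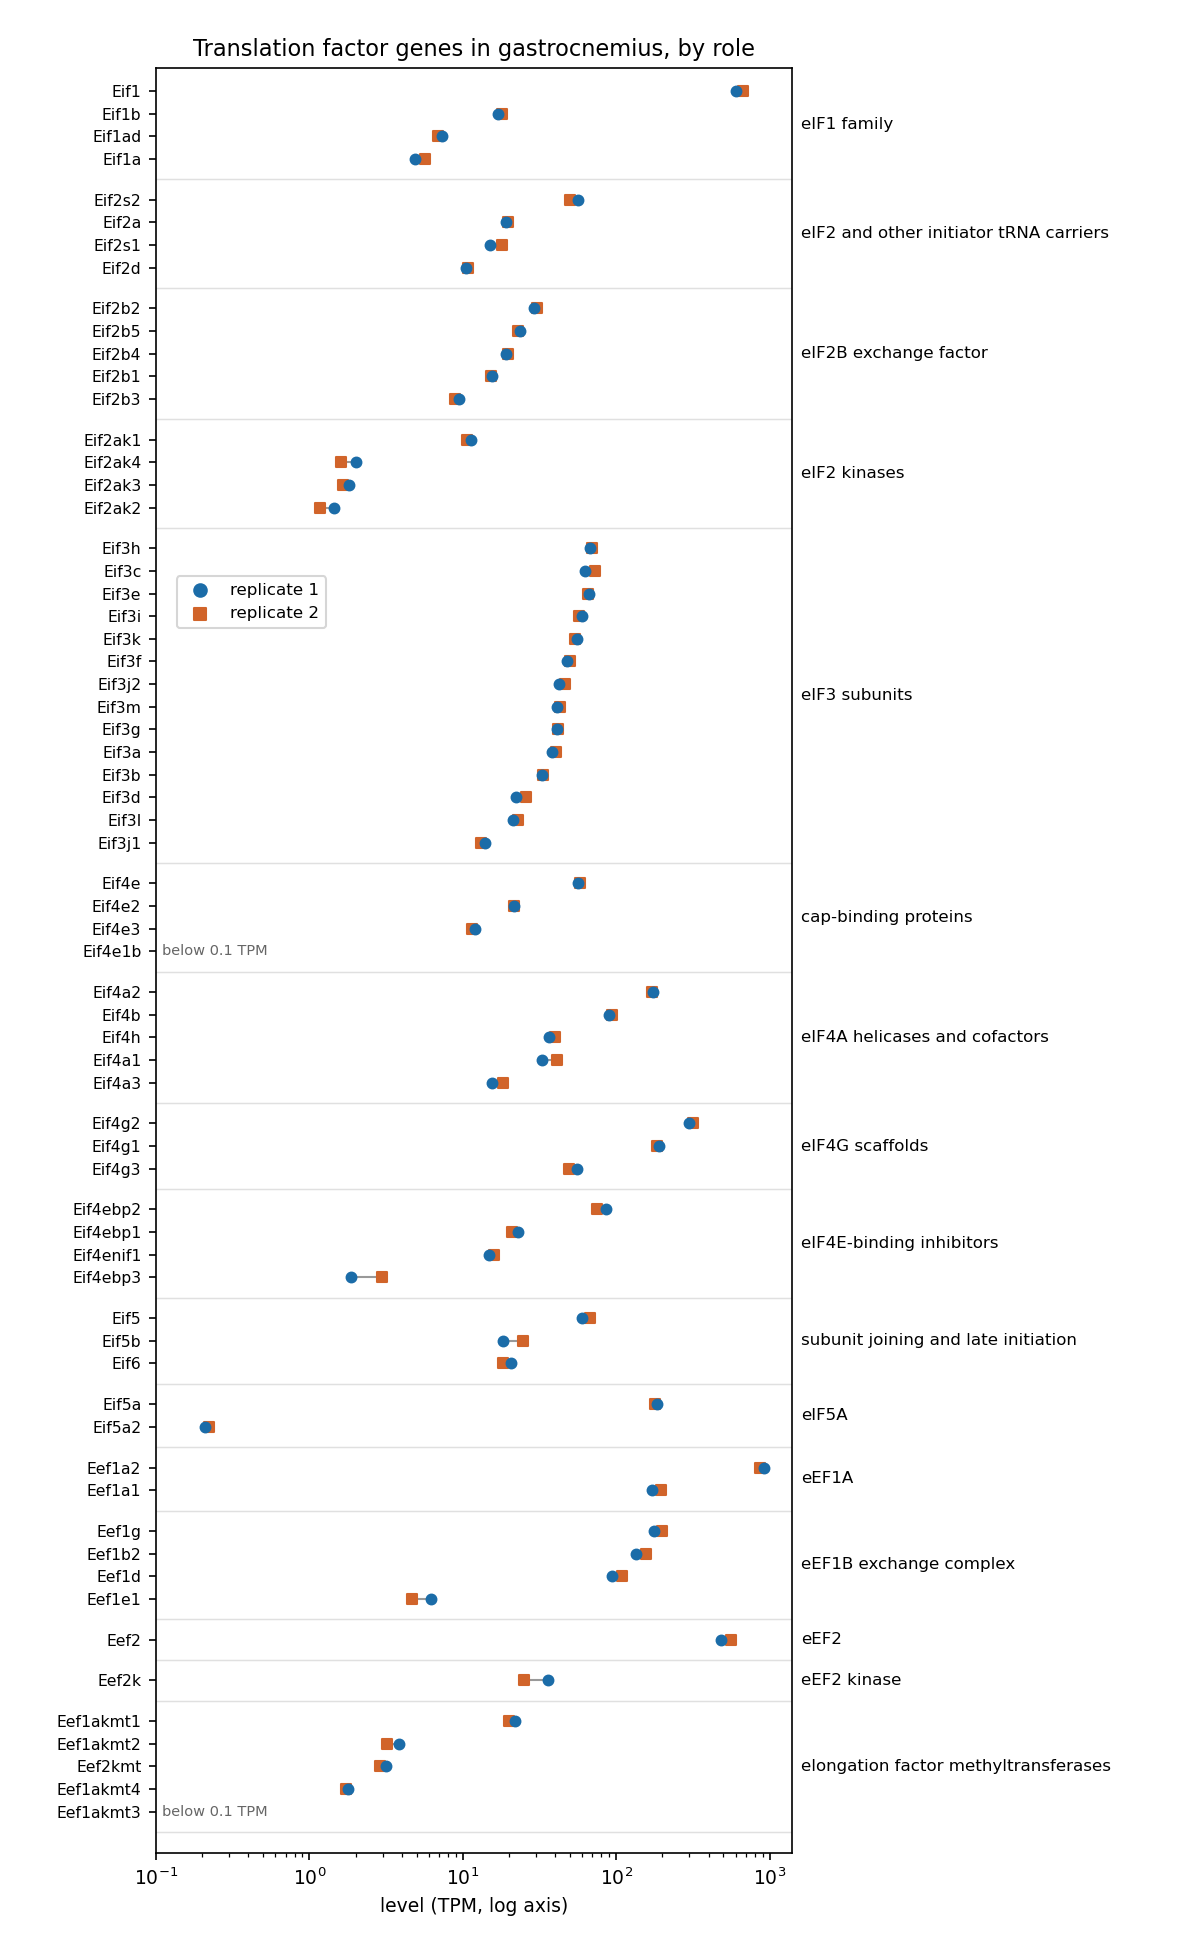
Level of each of the 65 translation factor genes in TPM on a log axis, in replicate 1 (circles) and replicate 2 (squares), grouped by role. Eef1a2 lies farthest right at 913 TPM in replicate 1 and 860 TPM in replicate 2, and the 2 symbols of most genes overlap.

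Eef1a2, which encodes the muscle and neuron form of eEF1A, was the highest of all translation factors. It lies at chr2:181147653-181157014 on the minus strand (mm10) and had 913 TPM in replicate 1 and 860 TPM in replicate 2, a mean of 886 ± 37.7 TPM (SD, n = 2), rank 39 among nuclear coding genes. Eef1a1, the ubiquitous form, at chr9:78478449-78489151 on the minus strand, had 171 TPM in replicate 1 and 197 TPM in replicate 2, a mean of 184 ± 18.6 TPM, rank 278. Eef1a2 thus stood well above Eef1a1 in each library, with no overlap. The Eef1a2 to Eef1a1 ratio was 5.35 in replicate 1 and 4.37 in replicate 2 (4.86 ± 0.70, SD, n = 2), and Eef1a2 made up 84.3% and 81.4% of eEF1A TPM. By counts, which are not length-corrected, its share was 88.3% in replicate 1 (95% Wilson interval 88.0% to 88.5%) and 85.8% in replicate 2 (85.6% to 86.1%). These intervals do not meet, and they hold counting error only.

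The Eef1a2 to Eef1a1 comparison rests on reads that can tell the paralogs apart, so their sequences matter. The coding sequences, 1392 nt in Eef1a2 and 1389 nt in Eef1a1, were identical at 1113 of 1389 aligned bases (80.1%), and the longest run without a difference was 23 nt. The first 90 coding bases of the GENCODE transcripts Eef1a2-201 and Eef1a1-201 show how densely the differences lie. Capitals mark the 15 bases at which they differ.
Eef1a2: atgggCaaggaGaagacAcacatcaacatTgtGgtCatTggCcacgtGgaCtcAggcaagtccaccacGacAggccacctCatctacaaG
Eef1a1: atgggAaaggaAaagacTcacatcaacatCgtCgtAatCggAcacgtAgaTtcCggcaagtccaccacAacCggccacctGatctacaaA
No 100-nt window of Eef1a2-201 occurred in a transcript of any other annotated gene. Of the windows of Eef1a1-201, 26.7% did, in 10 other genes, and 15 annotated pseudogenes carried at least 300 nt at 90% identity or more to it. Those pseudogenes held 333 expected counts in each library, 4.19% and 3.31% of their joint counts with Eef1a1. With all of them added to Eef1a1, the mean ratio was 4.64, and in the read-based table it was 4.30 ± 0.76 (4.84 in replicate 1 and 3.76 in replicate 2).

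The remaining core elongation factors were also abundant. Eef2, the translocase, at chr10:81176631-81182498 on the plus strand, had 486 TPM in replicate 1 and 563 TPM in replicate 2. The eEF1A genes together exceeded it 2.23-fold and 1.88-fold (2.05 ± 0.25, n = 2). In the eEF1B complex, the structural subunit gene Eef1g had 176 TPM in replicate 1 and 198 TPM in replicate 2. The exchange subunit genes Eef1b2 and Eef1d followed, with 135 and 155 TPM, and with 94.3 and 110 TPM, in replicates 1 and 2. Over all transcripts, coding or not, the order Eef1g, Eef1b2, Eef1d held in each library, and all 3 were slightly higher in replicate 2. Transcripts annotated as coding held 63.1% of Eef1b2 TPM in replicate 1 and 62.4% in replicate 2, against 98.7% and 97.3% of Eef1d TPM. In the read-based table they held a mean of 39.8% of Eef1b2 TPM and 99.7% of Eef1d TPM. The order over coding transcripts alone was not tested. eEF1A TPM exceeded Eef1g 6.14-fold in replicate 1 and 5.35-fold in replicate 2. Eef1e1, which carries the eEF1 symbol but encodes a scaffold protein of the aminoacyl-tRNA synthetase complex, had 6.25 TPM in replicate 1 and 4.70 TPM in replicate 2. Of the windows of Eef1g-201, 49.4% occurred in 4 pseudogenes, 49.1% in Gm4366 alone, which was listed at 6.22 TPM in replicate 1 and 5.58 TPM in replicate 2, so part of the Eef1g level is uncertain.

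Eef2k encodes the kinase that phosphorylates eEF2 and slows elongation. It had 35.8 TPM in replicate 1 and 25.2 TPM in replicate 2, from 4000 and 3027 counts, and differed more between the libraries than any other translation factor above 5 TPM. The Eef2 to Eef2k ratio was 13.6 in replicate 1 and 22.4 in replicate 2. The elongation factor methyltransferases, which modify lysines of eEF1A and eEF2, were low: Eef1akmt1 had 21.9 and 19.9 TPM in replicates 1 and 2, and the others stayed below 4 TPM.

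**Figure D2:**
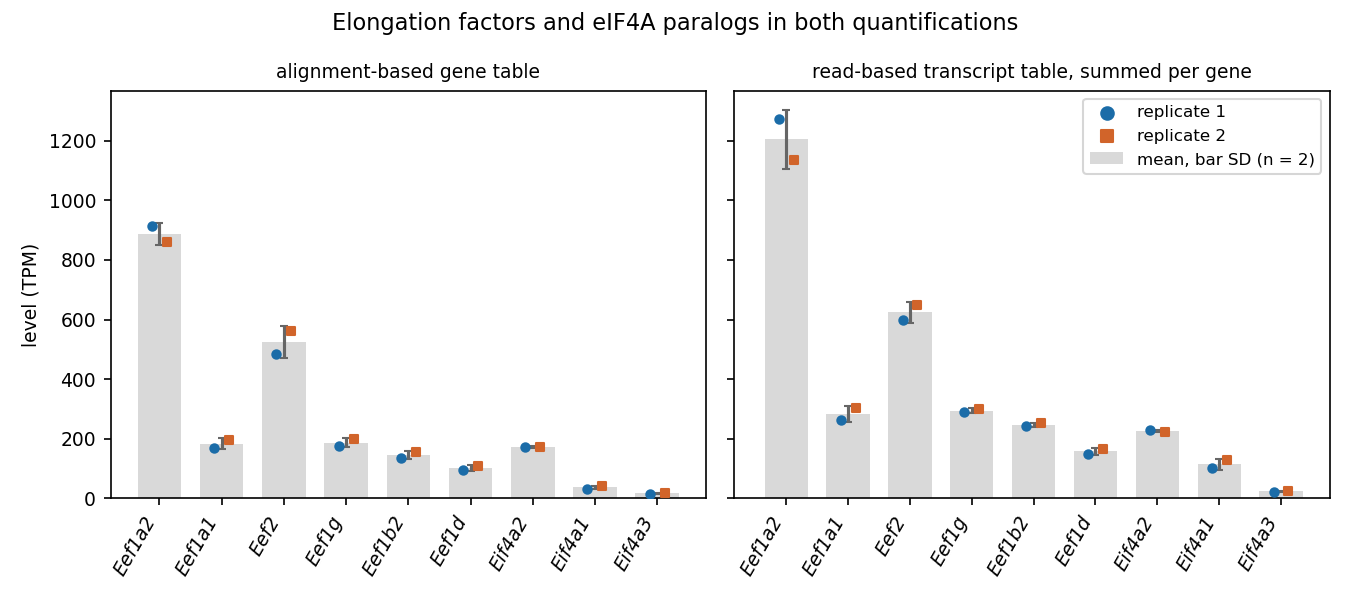
Levels in TPM of the core elongation factors and of the 3 eIF4A helicase genes in the alignment-based table (left) and the read-based table (right); bars are means of 2 libraries with SD, circles replicate 1 and squares replicate 2. Eef1a2 stands above Eef1a1 in both tables. Over all transcripts, coding or not, the gap between Eif4a2 and Eif4a1 is 4.73-fold on the left and 2.01-fold on the right.

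Among initiation factors, Eif1, which helps the scanning subunit select the start codon, was the highest. At chr11:100319885-100322096 on the plus strand, it had 601 TPM in replicate 1 and 671 TPM in replicate 2. Its near-paralog Eif1b had 16.9 and 18.1 TPM, an Eif1 to Eif1b ratio of 35.6 and 37.2. Eif1ad, a related gene, had 7.28 and 6.89 TPM. Eif1a, an autosomal gene for the partner factor eIF1A, was lower still with 4.91 TPM in replicate 1 and 5.64 TPM in replicate 2. The Eif1 and Eif1b coding sequences shared 278 of 342 bases (81.3%).

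eIF5A, which carries the amino acid hypusine and helps ribosomes past difficult peptide bonds, came almost wholly from Eif5a. It had 185 TPM in replicate 1 and 179 TPM in replicate 2, whereas Eif5a2 had 0.21 and 0.22 TPM from 33 and 38 counts. The ratio was 879 in replicate 1 and 814 in replicate 2. The paralogs' coding sequences were 73.2% identical with no identical run above 14 nt.

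Among the eIF4G scaffold and cap-binding protein genes, Eif4g2 was the highest. It encodes a scaffold that lacks the eIF4E-binding part, and had 299 TPM in replicate 1 and 315 TPM in replicate 2. The canonical scaffold Eif4g1 had 189 and 185 TPM, and Eif4g3 had 55.2 and 49.4 TPM. The order Eif4g2, Eif4g1, Eif4g3 was the same in each library and in both tables, although the Eif4g2 to Eif4g1 ratio was 1.64 ± 0.09 in the alignment-based table and 2.34 ± 0.03 in the read-based table. Eif4e, the cap-binding subunit, was lower at 56.3 TPM in replicate 1 and 57.9 TPM in replicate 2. Its relatives Eif4e2, a cap-binding repressor, and Eif4e3 had 21.6 and 21.5 TPM, and 12.1 and 11.6 TPM. The sum of Eif4g1 and Eif4g3 exceeded Eif4e 4.34-fold in replicate 1 and 4.05-fold in replicate 2.

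The eIF4E-binding proteins compete with eIF4G for eIF4E unless the kinase mTOR phosphorylates them. Eif4ebp2 was the highest, with 85.7 TPM in replicate 1 and 75.0 TPM in replicate 2. Eif4ebp1 had 22.99 and 21.03 TPM and Eif4ebp3 1.86 and 2.99 TPM. The 3 together exceeded Eif4e 1.96-fold and 1.71-fold in the alignment-based table, and 1.46-fold and 1.21-fold in the read-based table. Eif4enif1, which carries eIF4E into the nucleus and represses bound mRNAs, had 14.8 and 16.1 TPM. Of the windows of Eif4ebp3-201, 62.8% also lay in the overlapping annotated gene AC115631.1, listed at 4.10 TPM in replicate 1 and 2.74 TPM in replicate 2, so the level of Eif4ebp3 is uncertain.

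The helicase eIF4A was represented mainly by Eif4a2. This gene, at chr16:23107444-23114136 on the plus strand, had 174 TPM in replicate 1 and 171 TPM in replicate 2, against 32.7 and 41.2 TPM for Eif4a1. Eif4a3, the helicase of the exon junction complex, had 15.5 and 18.4 TPM. The cofactors Eif4b and Eif4h, which stimulate the helicase, had 90.3 and 94.6 TPM, and 36.4 and 39.7 TPM. Eif4a2 was above Eif4a1 in each library and in both tables, but by how much depended on the table. The Eif4a2 to Eif4a1 ratio was 5.32 in replicate 1 and 4.15 in replicate 2 in the alignment-based table, and 2.28 and 1.74 in the read-based table. These ratios count all transcripts. Those annotated as coding held a mean of 44.3% of Eif4a2 TPM and 83.5% of Eif4a1 TPM in the alignment-based table. In the read-based table they held 70.8% and 24.2%. The ratio over coding transcripts alone was not tested.

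Eif4a1 shares most of its sequence with a copy elsewhere in the genome. Eif4a2 and Eif4a1 themselves were 78.1% identical over 1221 aligned coding bases, with no identical run above 20 nt, as their last 90 coding bases show; capitals mark the 16 differences between transcripts Eif4a2-203 and Eif4a1-213.
Eif4a2: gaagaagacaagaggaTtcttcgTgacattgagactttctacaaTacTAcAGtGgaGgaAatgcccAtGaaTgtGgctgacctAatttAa
Eif4a1: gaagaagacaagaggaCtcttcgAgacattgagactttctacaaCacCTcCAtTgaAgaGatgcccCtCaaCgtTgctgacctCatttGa
The processed pseudogene Eif4a-ps4, at chr1:60703932-60705149, differed from the Eif4a1 coding sequence at 1 of 1218 aligned bases. The 90 bases around that base, positions 489 to 578 counted from the start codon of Eif4a1, are shown with the difference in capitals.
Eif4a1: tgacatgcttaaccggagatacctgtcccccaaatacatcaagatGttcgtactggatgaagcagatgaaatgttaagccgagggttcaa
Eif4a-ps4: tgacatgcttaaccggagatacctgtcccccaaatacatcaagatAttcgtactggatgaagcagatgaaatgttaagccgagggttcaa
Of the windows of Eif4a1-213, 60.8% occurred in another gene, and the deposited posterior standard deviation of the Eif4a1 count was 57.7 reads on 1555 in replicate 1 and 60.7 reads on 2221 in replicate 2. Eif4a-ps4 was listed at 9.85 TPM in replicate 1 and 11.8 TPM in replicate 2. With the pseudogene TPM added to Eif4a1, the mean Eif4a2 to Eif4a1 ratio was 3.66. The read-based table gave Eif4a1 100.4 and 128 TPM without the pseudogene, and listed Eif4a-ps4 at 16.5 and 19.3 TPM. In that table the leading Eif4a1 transcript was Eif4a1-212, annotated as a retained intron, with 26.8% of Eif4a1 TPM in replicate 1 and 25.0% in replicate 2. The cause of the gap between the tables was not tested.

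eIF3, the largest initiation factor, holds the small subunit and the mRNA together. The 12 subunit genes other than Eif3j1 and Eif3j2 lay between 21.2 and 67.8 TPM in replicate 1, with a median of 44.7 TPM, and between 22.8 and 72.3 TPM in replicate 2, with a median of 46.6 TPM. In both libraries 10 of the 12 were within 2-fold of the median, and Eif3l and Eif3d were lowest. Eif3h, a subunit of the outer part of the complex, was the highest in replicate 1 with 67.8 TPM, and had 69.4 TPM in replicate 2. Eif3c, a core subunit, had 62.6 TPM in replicate 1 and was the highest in replicate 2 with 72.3 TPM. In the read-based table Eif3e was the highest in each library, with 118 TPM in replicate 1 and 108 TPM in replicate 2. Its alignment-based levels were 66.26 and 65.75 TPM. Eif3a, the largest subunit, and Eif3b, which binds it, had 38.4 and 40.3 TPM, and 32.7 and 33.3 TPM. Eif3d, which can bind the cap of some mRNAs, had 22.2 TPM in replicate 1 and 26.02 TPM in replicate 2. The highest subunit exceeded the lowest 3.20-fold in replicate 1 and 3.17-fold in replicate 2. Eif3j2 had 42.1 and 46.0 TPM and Eif3j1 14.0 and 13.2 TPM. Their coding sequences were identical over all 786 bases that aligned, and 84.0% of the windows of Eif3j2 and 36.0% of those of Eif3j1 lay in the other gene, so the split between them is uncertain.

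Except for Eif2s2, the autosomal genes of eIF2, eIF2B and the eIF2 kinases stood below the eIF3 medians in the alignment-based table. Eif2s2, the beta subunit, had 56.1 TPM in replicate 1 and 50.2 TPM in replicate 2, and Eif2s1, the alpha subunit that stress kinases phosphorylate, had 15.1 and 17.9 TPM. Eif2a and Eif2d, which can bring initiator tRNA by other routes, had 19.1 and 19.7 TPM, and 10.5 and 10.9 TPM. The 5 subunits of eIF2B, which recharges eIF2 with GTP, summed to 97.2 TPM in replicate 1 and 97.3 TPM in replicate 2. Eif2b2 led them at 29.2 and 30.6 TPM, with Eif2b3 lowest at 9.48 and 8.90 TPM. Which gene led depended on the table. In the read-based table Eif2b1 led with 46.3 and 37.1 TPM, against 30.6 and 25.2 TPM for Eif2b2. The catalytic subunit gene of eIF2B, Eif2b5, had 23.6 TPM in replicate 1 and 22.9 TPM in replicate 2 in the alignment-based table. Of the eIF2 kinases, Eif2ak1, known as the haem-regulated kinase, led with 11.4 TPM in replicate 1 and 10.6 TPM in replicate 2. The other 3 were between 1.17 and 2.02 TPM, with Eif2ak2 (the double-stranded RNA sensor) lowest. Eif2ak4 (the amino acid sensor) and Eif2ak3 (the endoplasmic reticulum sensor) lay close together. In the read-based table Eif2ak2 was not the lowest, with a mean of 2.47 TPM against 2.26 TPM for Eif2ak4 and 2.08 TPM for Eif2ak3.

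The late factors Eif5, Eif5b and Eif6 act on start-codon commitment, subunit joining and the large subunit. Eif5 had 60.2 TPM in replicate 1 and 67.3 TPM in replicate 2, Eif5b 18.3 and 24.8 TPM, and Eif6 20.5 and 18.3 TPM. As groups, the summed TPM of the 6 core elongation genes (Eef1a1, Eef1a2, Eef1b2, Eef1d, Eef1g and Eef2) stood to that of all Eif genes in a ratio of 0.69 in replicate 1 and 0.70 in replicate 2.

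Between the 2 libraries the translation factors differed little. The comparison used a 2-sided exact binomial test of rounded counts with TMM library sizes, over the 14965 genes whose mean count reached 10, with Benjamini-Hochberg adjustment, and a gene was called at an adjusted p below 0.05 and at least a 2-fold difference. It compares these libraries, not conditions, and holds counting error only. None of the 63 translation factors tested was called, against 6.18% of all genes tested. Without the fold requirement, 24 had an adjusted p below 0.05, where 35.4% of all genes did, and 34 had an unadjusted p below 0.05. By direction, 14 of the 63 tested had such a p and were higher in replicate 1, against 16.8% of all genes tested. Higher in replicate 2 were 10 of the 63, against 18.6% of all genes tested. edgeR's exact test with a common dispersion called 0 of 63, against 1.8% of all genes. That dispersion was estimated from these same 2 libraries, so their differences enter its noise term and the 0 is no independent check.

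At 1.5-fold, 1 translation factor was called, Eef2k, against 11.8% of all genes in either direction and 3.85% higher in replicate 1. It was 1.5-fold higher in replicate 1 (log2 0.59, adjusted p = 8.4e-63 by the exact binomial test). Eif4ebp3 lay at the other end, with a log2 ratio of replicate 1 over replicate 2 of -0.63, from 37.8 counts in replicate 1 and 66.8 in replicate 2, and did not pass (adjusted p = 0.080, exact binomial test). The median log2 ratio was 0.04 for the translation factors and -0.01 for all genes tested. The median size of the log2 ratio, taken without sign, was 0.11 for the translation factors and 0.21 for all genes tested, and 0.19 for the protein-coding ones. Within 0.25 of 0 lay 53 of the 63 (84.1%), against 56.4% of all genes tested. The median of the mean counts was 1570 for the translation factors tested and 302 for all genes tested, and the part of depth in these shares was not tested. Scaled on the ERCC spike-ins, the median log2 ratio of all genes moved by -0.22. The translation factors then split into 10 higher and 53 lower in replicate 1, in place of 38 and 25, and the call count was again 0.

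**Figure D3:**
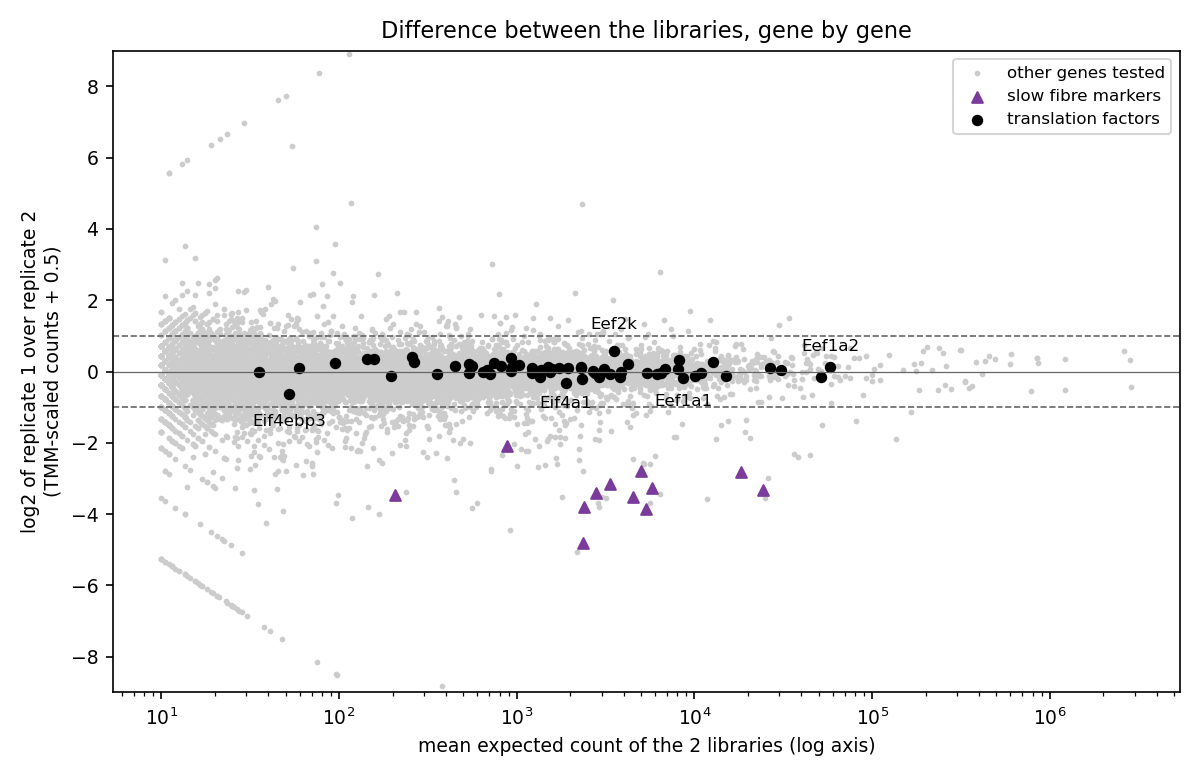
Log2 ratio of replicate 1 over replicate 2 (TMM-scaled counts plus 0.5) against the mean expected count on a log axis, for 63 translation factors (black), slow fibre markers (purple triangles) and the other genes tested (grey); dashed lines mark 2-fold. All translation factors lie between -0.63 and 0.59, inside the dashed lines, while all 12 slow fibre markers lie below.

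The elongation factors differed at small size. Eef1a2 was higher in replicate 1 (log2 0.14, adjusted p = 1.1e-58, exact binomial test), but lower there with spike-in scaling (log2 -0.08). Eef1a1 and Eef2 were lower in replicate 1 under each scaling (log2 -0.17 and -0.16, adjusted p = 7.0e-14 and 7.9e-73, exact binomial test). Eef1b2, Eef1d and Eef1g were lower in replicate 1 as well, with log2 ratios of -0.14, -0.19 and -0.12. The fibre markers also differed between the libraries. The fast fibre list had a median log2 ratio of 0.56, but Myh1 within it was called higher in replicate 2, and all slow fibre markers were higher in replicate 2. So were the 8 Schwann cell markers in sum, which came to 30.1 TPM in replicate 1 and 44.04 TPM in replicate 2 with 3 called higher in replicate 2, against 4.48% of all genes tested. Their part in the differences was not tested. The endothelial list had 2 of 10 markers called higher in replicate 2 (sums of 71.7 and 93.7 TPM in replicates 1 and 2), the fibroblast and macrophage lists none of 10 (571 and 548 TPM) and of 9 (46.2 and 53.0 TPM), and the neuron list 1 of the 2 that reached the count minimum (2.32 and 3.63 TPM).

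For 13 of the 63 genes tested, the difference in length-corrected level and the TMM log2 ratio of the counts had opposite signs. Of these 13, 3 had an adjusted p below 0.05 (exact binomial test), Eif4g2, Eif2b2 and Eif2s1, and in Eif4g2 the log2 ratio was 0.05. Eif2b2 had 998 counts in replicate 1 and 865 in replicate 2, a log2 ratio of 0.39 (adjusted p = 4.9e-08, exact binomial test), while its level was 29.2 TPM in the first and 30.6 TPM in the second library. Its leading transcript Eif2b2-201 held 64.4% of its TPM in replicate 1 and 42.9% in replicate 2. Eif2s1 had 1033 and 1035 counts, a log2 ratio of 0.18, but the lower level in replicate 1, and its leading transcript held 61.6% in replicate 1 and 44.7% in replicate 2. Since TPM divides by the mean length of the transcripts assigned, these levels carry the transcript assignment.

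The alignment-based and read-based levels were close for most translation factors. Over detected coding genes the median ratio of the alignment-based to the read-based level was 0.734. After division by that median, 2 of 62 translation factors differed at least 2-fold, against 1.47% of 10040 detected coding genes, and 6 differed at least 1.5-fold, against 6.69%. Eif4a1 stood at 0.44 of the read-based level and Eef1e1 at 2.10 times it. Between 1.5-fold and 2-fold were Eif4g2 (0.66), Eif4ebp3 (0.54), Eif2b1 (0.50, just inside 2-fold) and Eif2s1 (1.79). By contrast Eef1a2 was at 1.00 and Eef1a1 at 0.89. Counts differed less than TPM: Eif4a1 had 1555 and 2221 counts in the alignment-based table, against 2167 and 3040 in the read-based table, while Eef1e1 had 276 and 237, against 224 and 196.

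**Figure D4:**
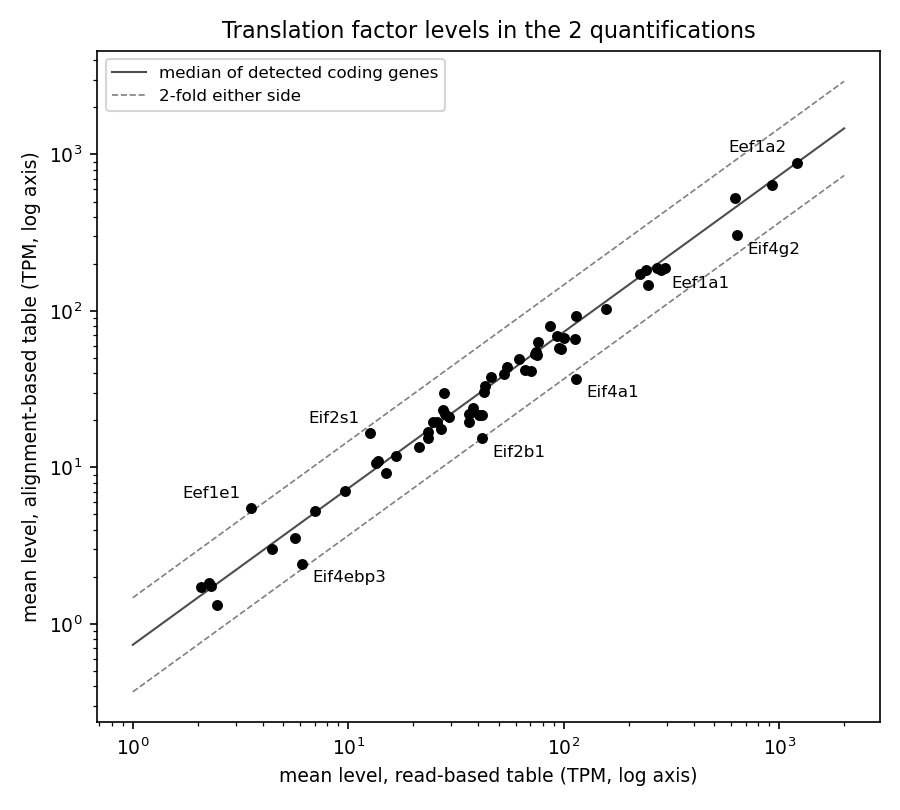
Mean level of each detected translation factor over 2 libraries in the alignment-based table (vertical) against the read-based table (horizontal), in TPM on log axes; the solid line is the median ratio of detected coding genes, 0.734, and the dashed lines lie 2-fold to either side. Eif4a1 falls below the lower dashed line and Eef1e1 above the upper, and Eef1a2 sits on the solid line.

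Transcript use was described for the 52 translation factors with at least 5 TPM and several annotated transcripts. The leading transcript, the most abundant by mean share, held a median of 81.6% of the gene's TPM, against 68.4% over the 6094 coding genes of the same kind. It held over 90% in 19 genes, among them Eef2 (99.2%) and Eif3h (99.0%), and under 50% in 12, among them Eif5 (28.8%) and Eef1d (34.3%). In the read-based table another transcript led in 12 of the 52 genes (23.1%), against 24.7% of the coding genes. Those 12 were Eef1d, Eif1, Eif1a, Eif2b1, Eif2b4, Eif4a1, Eif4a2, Eif4e2, Eif4g1, Eif4h, Eif5 and Eif5a.

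**Figure D5:**
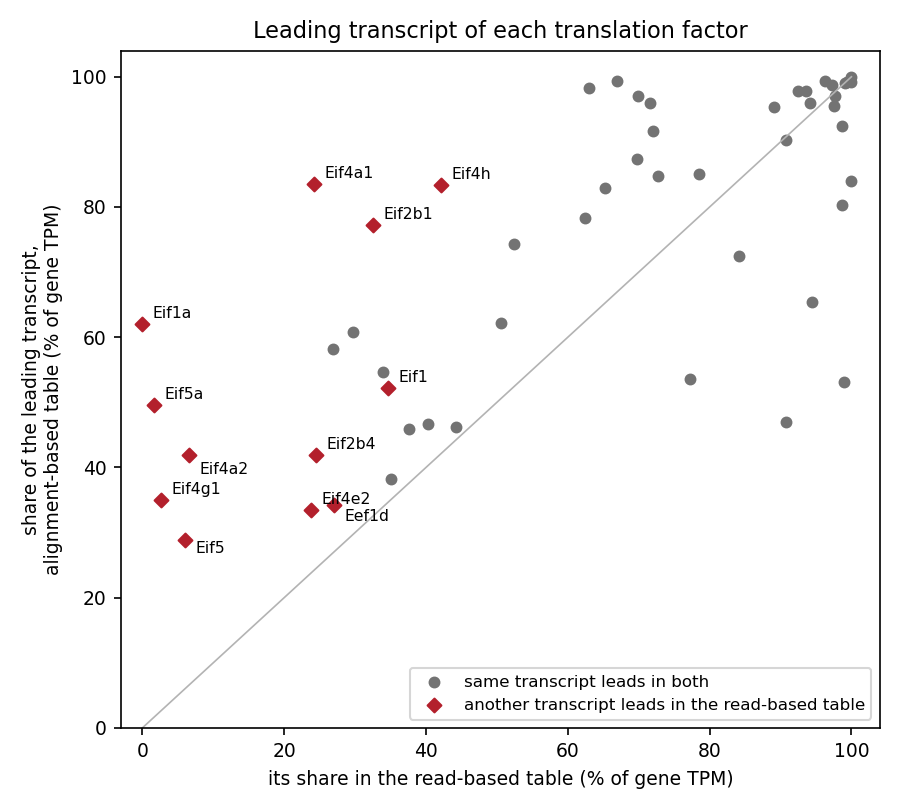
Share of gene TPM held by the leading transcript of the alignment-based table (vertical, %) against the share of that same transcript in the read-based table (horizontal, %), for 52 translation factors, as means of 2 libraries. Red diamonds mark the 12 genes in which another transcript led in the read-based table; Eif4a1-213 has 83.5% in the first and 24.2% in the second.

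In 3 genes the leading transcript was not annotated as coding. Eif4a2-210, annotated for nonsense-mediated decay, held 43.7% of Eif4a2 TPM in replicate 1 and 40.1% in replicate 2. Its share was 10.3% and 2.81% in the read-based table, where the coding Eif4a2-201 led with 52.3% and 54.9%. Eif1-202, a processed transcript of 383 nt, held 52.5% and 51.8% of Eif1, and the coding Eif1-201 led in the read-based table with 50.8% and 55.6%. Eif4ebp1-202, also a processed transcript, led in both tables, with 70.4% and 74.5% in the alignment-based and 85.5% and 82.8% in the read-based table. The share of coding transcripts therefore differed between tables for Eif4a2, 44.2% and 44.5% in the alignment-based table and 70.9% and 70.6% in the read-based table. For Eif4a1 it ran the other way, with 80.7% and 86.4% against 24.4% and 24.0%. Across the 52 genes the median coding share was 95.7% in the alignment-based table and 96.02% in the read-based table.

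Many of the most abundant translation factors carry small nucleolar RNA genes within their bodies. On the same strand, 18 such genes lay inside 9 of the 62 detected translation factors (14.5%), against 2.04% of 9757 detected autosomal coding genes. Eif4a2 held 5 and Eif4a1 held 3. The median mean level was 145 TPM for the 9 genes with one inside and 21.8 TPM for the others. Gm26447 in Eif4a2 was listed at 256 TPM in replicate 1 and 323 TPM in replicate 2, and Gm22988 in Eif4a1 at 265 and 335 TPM. These levels rested on 242 and 335 counts, and on 376 and 521 counts, because division by a short length raises TPM. Eif4a2 itself had 7767 and 8339 counts. Gm26447 also lies inside an exon of Eif4a2-206 and Eif4a2-220, and Gm22988 inside one of Eif4a1-202, so both levels are uncertain. Both small RNAs were higher in replicate 2. Both were listed at 0 in the read-based table, and 10 of the 18 had no counts in either table.

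Genes that act with the translation factors were taken as 6 further lists. Of the 8 termination and recycling genes, none was called, and Etf1, the release factor that reads stop codons, was highest with 35.2 TPM in replicate 1 and 39.3 TPM in replicate 2. None of 9 genes of poly(A)-binding and mRNA-packaging proteins was called. Ybx3 had 919 and 846 TPM, Ybx1 319 and 320 TPM and Pabpc4 159 and 133 TPM, so Ybx3 stood near Eef1a2. None of 9 mitochondrial translation factors was called, with Tufm, the mitochondrial counterpart of eEF1A, at 46.7 and 52.4 TPM and Gfm1 at 43.9 and 45.5 TPM. Of the 8 enzymes that make the hypusine of eIF5A and the diphthamide of eEF2, none was called, and Dph3 led with 51.7 and 50.1 TPM.

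The other 2 lists held regulators of the factors and targets of the stress response that acts through eIF2. Of 15 kinases, phosphatase subunits and related regulators, 1 was called, a share near the 6.18% of all genes tested. This was Ppp1r15a, the stress-induced phosphatase subunit that directs dephosphorylation of eIF2, with 9.14 TPM in replicate 1 and 26.8 TPM in replicate 2 (log2 -1.47, adjusted p = 9.6e-97, exact binomial test). Its constitutive counterpart Ppp1r15b had 6.34 and 6.43 TPM. Mknk2, an eIF4E kinase, was the highest of the list with 82.4 and 123 TPM and was not called. Of 9 targets of the integrated stress response tested, 2 were called, both higher in replicate 2, where 4.48% of all genes tested were. Chac1 had 11.9 TPM in replicate 1 and 45.5 TPM in replicate 2 (log2 -1.88), and Ddit3 had 3.10 and 7.61 TPM (log2 -1.21). Atf4, the transcription factor whose translation depends on eIF2, had 65.4 and 69.6 TPM (log2 -0.04) and was not called, nor was Atf5 with 21.2 and 41.8 TPM (log2 -0.93). The eIF2 kinases themselves were not called, and their log2 ratios ran from -0.13 to 0.36.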

How the data were processed

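Total RNA-seq of 2 gastrocnemius libraries (1 group) was analysed from the deposited tables. Per the file lists supplied beside the samples, the authors made the gene table and a first transcript table from a transcriptome alignment and a second transcript table directly from the reads, with assembly mm10 and GENCODE M21. Not given in the sources used here were the aligner, the quantification programs and the strand setting. Per the file headers, the deposited values are expected counts, TPM, FPKM and, per transcript, the percent of the gene's TPM. The deposited posterior standard deviation of each count, treated as a score, marked shared reads. Effective lengths were 99 nt below the length in the gene table and a median of 344 and 349 nt below it in the read-based table.

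Symbols came from the identifiers in the read-based table. Expected counts were rounded and compared by an exact binomial test (SciPy 1.17.1) with TMM library sizes (edgeR 4.0.16). Quasi-likelihood fits need replicates on each side and could not be fitted. The test was checked on simulated Poisson counts. These hold counting error only, as the test assumes, so the check does not cover wider spread. DESeq2 1.42.0 size factors, total counts, spike-ins, edgeR's exact test, other filters, folds, pseudocounts and FPKM were alternatives. The 26249 tRNA and other entries outside the annotation were left out. Shared sequence was counted as 100-nt windows of the leading transcript found in transcripts of other genes, and pseudogene copies with blastn 2.17.0+. Pairwise identities used Biopython 1.88. Small RNA genes were counted by position on the same strand.

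The genes described and the lists beside them were chosen with earlier results of these data known. The 10 most abundant translation factors, paralog sets, the highest and lowest of each role, genes that moved between tables and, in each list, the 1 to 4 highest and any called gene are named. Ppp1r15b and the genes whose counts and TPM are set side by side were singled out after their values were seen.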

Additional observations from a re-analysis of the deposited data

How the results depend on the processing

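No translation factor was called under 8 of the 9 alternatives tried for that count, and at 1.5-fold 1 was called. Not all of these could have given another count. In the comparison given, all log2 ratios lay between -0.63 and 0.59, so the 3-fold cut and a mean count of at least 100 could only give 0. Other scalings move all genes together, and with spike-ins the lowest log2 ratio, of Eif4ebp3, was -0.85. The number detected was 53 to 62 under 6 alternatives. The Eef1a2 to Eef1a1 ratio was 4.30 to 5.35 and the Eef1a2 share of eEF1A 80.9% to 84.3% under every alternative tried for them. The median log2 ratio of the translation factors, 0.04 in the comparison given, was -0.00031 with total counts, -0.18 with spike-ins and -0.033, -0.026 and -0.023 from TPM with pseudocounts of 0.1, 0.5 and 5; no direction is drawn from it. The Eif4a2 to Eif4a1 ratio (alternatives added after the data were seen), 4.73 on average, was 2.01 in the read-based table and 3.66 with the pseudogenes added, and 4.15 to 5.32 with either library left out. Genes that differed between the tables numbered 2 at 2-fold, 6 at 1.5-fold, 0 at 3-fold, 4 without division by the median, and 2 to 4 with either library left out: Eif2s1 and Eif4a1 without replicate 1, and Eef1e1, Eif2b1, Eif4a1 and Eif4ebp3 without replicate 2. The median share of the leading transcript was 82.9% at 20 TPM or more, 69.8% in the read-based table and 79.4% to 81.0% with either library left out. The cause of these shifts was not tested. All genes called numbered 925, and 270 by edgeR's exact test. No paired analysis was possible because both libraries belong to 1 group. With 2 libraries, spread rests on 1 degree of freedom, and differences between animals and between preparations cannot be told apart.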
